A study of Rattus norvegicus with 3 samples.

Results

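Among 13226 annotated cells of a stromal single-cell library from rat thymus, 411 carried the authors' label Thymocyte, 3.11% (95% exact Clopper-Pearson interval 2.82 to 3.42, as for all shares here). The label was taken from the authors' projected label or, where that was empty, from their initial cluster, and all 411 came from the initial cluster. The whole data set held 21772 annotated cells in 2 droplet libraries. Both libraries came from thymi of Lewis rats, an inbred strain, at 8 weeks of age, and no label gives the number of animals. For the stromal library, thymi were digested with Liberase TH and DNase I at 37 °C for 25 min with pipetting every 5 min, and cells lacking CD45 were enriched on an autoMACS and then sorted on a FACSAria III. CD45, encoded by Ptprc, is the surface phosphatase of blood-derived cells, so thymocytes are cells that this selection removes. The comparison group was a thymocyte library of 8546 annotated cells, released with collagenase D and DNase I, with no CD45 selection and no digestion time stated for it. Each library was 1 sample, so no test was possible, every comparison describes these libraries, and intervals cover counting error only. Digestion, selection, sorting and library cannot be told apart.

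Thymocytes are T cell precursors that enter the thymus without the coreceptors CD4 and CD8 (double-negative, DN), proliferate as they acquire both (DP-P), rest as double-positive cells (DP) that rearrange the receptor alpha chain, and then receive a signal through the receptor (Pre DP-sig and DP-sig in the authors' labels) before becoming single-positive CD4 or CD8 cells (SP). Immediate-early genes, such as those of the AP-1 factors Fos and Jun, are transcribed within minutes of a stimulus without new protein synthesis, and heat shock genes encode chaperones that refold proteins. Both classes are known to respond to enzymatic digestion at body temperature, and immediate-early genes also respond to receptor signals during selection.

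The 411 stromal-library thymocytes held 1715671 UMIs (unique molecular identifiers, which count molecules and not copies). The median cell had 2648, and the range was 621 to 23011. The libraries shared 38 barcodes, and none of them belonged to these 411 cells. Before any comparison, the cells were checked for RNA of the cells they were prepared with, using 10 fibroblast genes (such as Col1a1, Col3a1 and Dcn, for collagens and a matrix proteoglycan). Of the 411 cells, 67 (16.3%, 12.9 to 20.2) had at least 1% of their UMIs in these 10 genes and are called fibroblast-rich, while the other 344 are called fibroblast-poor. The line at 1% was drawn after seeing the data. Around it, 19 cells had 0.5 to 1% and 9 cells 1 to 2%, while 30 cells had 2 to 5% and 28 had more. The fibroblast-rich cells had a median of 11895 UMIs and 4141 genes, and the fibroblast-poor cells 2412.5 UMIs and 1430.5 genes.

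**Figure D1:**
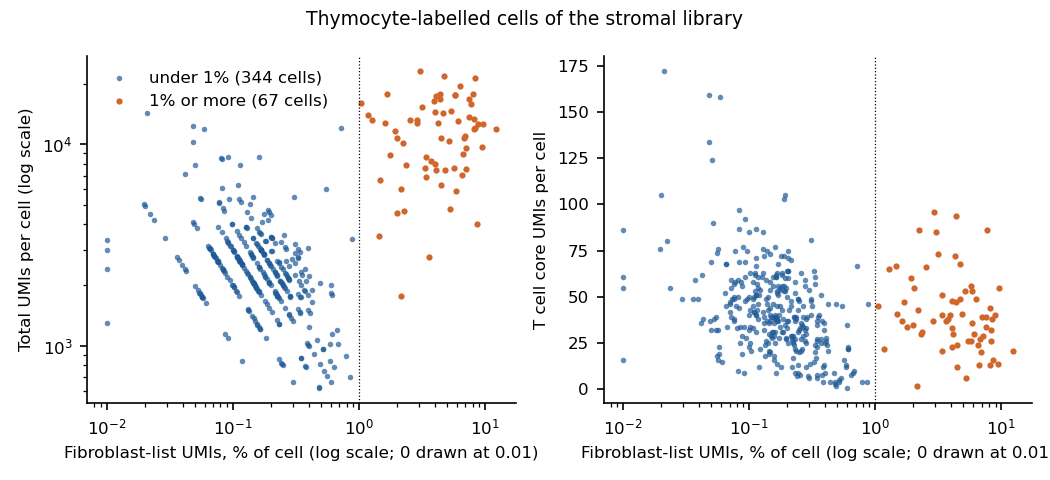
Each point is 1 of the 411 thymocyte-labelled cells of the stromal library. The horizontal axes give the share of its UMIs in 10 fibroblast genes (log scale, 0 drawn at 0.01), and the vertical axes give its total UMIs (left, log scale) and its UMIs of 16 T cell core genes (right); the dotted line marks 1%. The 67 cells right of the line have a median of 11895 UMIs against 2412.5 for the 344 left of it, while the T cell core medians are 38 and 39 UMIs.

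The 16 T cell core genes were the CD3 chains, Lck, Zap70, Thy1 and others, among them Ptprc, which encodes CD45. Their UMIs had nearly the same median per cell in both sets, 38 in the fibroblast-rich and 39 in the fibroblast-poor cells. As a share of the cell, they were 0.332% and 1.59%. In the fibroblast-rich cells the fibroblast list made up 4.98% of UMIs, which is 105.6% of its level in the non-lymphoid stromal cells. In the fibroblast-poor cells it was 3.66% of that level, and over all 411 cells 49.6%. When the RNA of each fibroblast-rich cell was matched to the stromal labels, 29 were nearest to TMC2, 13 to TMC1, 11 to capFb, 9 to TMC3, 4 to TMC4 and 1 to vSMC/PC. These cells were chosen by fibroblast genes and matched on genes high in stroma, so a fibroblast label was partly built in. Cells of the 5 fibroblast labels (TMC1 to TMC4 and capFb) with 20 or more T cell core UMIs numbered 8 of 8216. Doublets were not removed and no doublet caller was run, so the part of doublets, attached cells and free RNA in the fibroblast-rich cells was not tested. Results are therefore given for all 411 cells and for the 344 fibroblast-poor cells.

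The 4 marker genes fitted the label. Levels were computed as CPM (UMIs of the gene per 1000000 UMIs of the pooled cells). Cd3e, a chain of the T cell receptor complex, was at 578 CPM in the 411 cells and 914 in the fibroblast-poor cells, against 28.0 in the next stromal label, B cell, which is 20.6-fold below the 411 cells. Cd4 and Cd8a, the coreceptors, stood 47.1-fold and 28.5-fold above the next label, also B cell. Ccr9, the receptor for the thymic chemokine CCL25, was at 317 CPM in the 411 cells, 30.8-fold above mTEC2. The fibroblast-poor cells, at 508 CPM of Ccr9, lay near the DP label of the thymocyte library (499) and well above its DN (35.1) and Mature CD4-1 (29.5) labels. T cell core genes made up at least 1% of UMIs in 300 of the 344 fibroblast-poor cells and in 3 of the 12815 stromal cells with other labels. By count the list was less particular. At least 20 of its UMIs were in 351 of the 411 cells (85.4%), 85 of 179 B cells (47.5%) and 93 of 505 Myeloid cells (18.4%). These marker levels chose the cells in part, since the cluster was made from the same genes, and are a description.

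**Figure D2:**
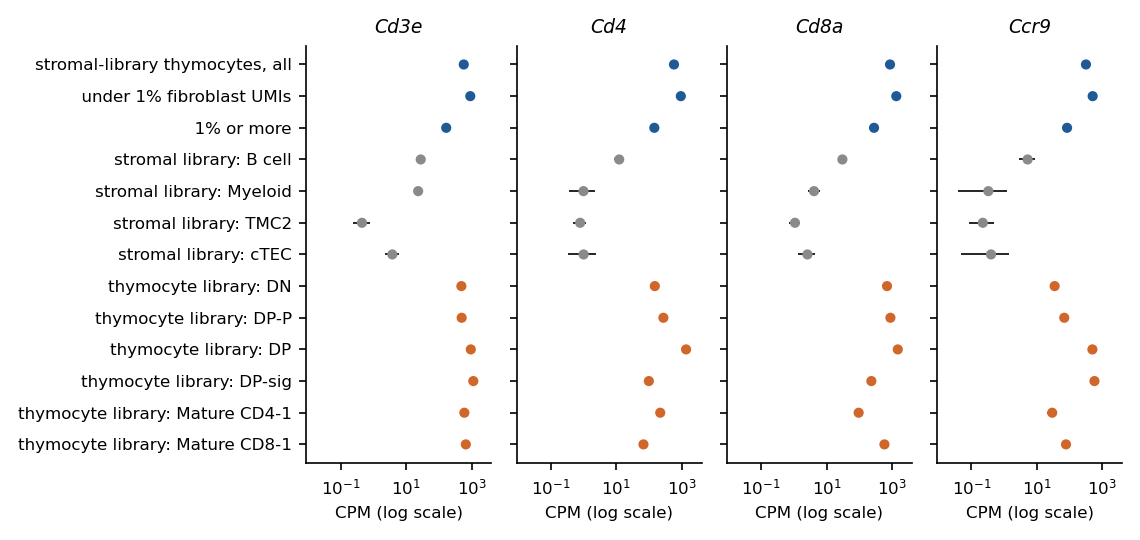
Pooled level of the 4 marker genes in CPM (log scale, one panel per gene) in the stromal-library thymocytes (blue), other labels of the stromal library (grey) and labels of the thymocyte library (orange). Lines are 95% Poisson intervals; for Cd3e the 411 cells are at 578 CPM and the B cell label at 28.0 CPM.

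Ptprc RNA was present in these cells, which had passed a CD45-negative selection. Its level was 853 CPM (810 to 898, exact Poisson) in all 411 cells, 1293 (1222 to 1368) in the fibroblast-poor cells and 957 (949 to 964) in the thymocyte library. The ratio to the thymocyte library was 0.891 (0.846 to 0.939) over all 411 cells, 1.35 (1.28 to 1.43) in the fibroblast-poor cells and 0.330 (0.291 to 0.374) in the fibroblast-rich cells. Against thymocytes of the same stages it was 0.626 (0.594 to 0.660) over all 411 cells, 0.922 (0.870 to 0.976) in the fibroblast-poor cells, and 1.00 (0.936 to 1.07) in those placed at DP against the DP label. At least 1 Ptprc UMI was seen in 90.1% of the fibroblast-poor cells (86.5 to 93.1) and in 1.14% of the non-lymphoid stromal cells. The next stromal label was Myeloid at 255 CPM. CD45 protein was not analysed here.

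The stages present were read in 2 ways, after thinning each cell to 1000 UMIs. Thinning left out 24 of the 411 cells, all fibroblast-poor, and 51 thymocyte-library cells. By coreceptor UMIs, 52.8% of 320 fibroblast-poor cells (47.2 to 58.4) had both Cd4 and a Cd8 chain, 26.9% only Cd8, 4.38% only Cd4 and 15.9% neither. Both were seen in 45.9% of 8495 thymocyte-library cells, in 44.7% of all 387 thinned stromal-library thymocytes and in 5.97% of the 67 fibroblast-rich cells. None of 3079 cells of the fibroblast label TMC2 had both, which allows a share of up to 0.120%. The median depths before thinning were 2514.5 UMIs in the fibroblast-poor cells and 8271 in TMC2. Without thinning, the share with both was 68.0% in the 344 fibroblast-poor cells.

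Each cell was then placed at the most likely of 21 thymocyte-library labels, using 697 genes from which the stress lists and genes high in stroma had been left out. Held-out cells of the thymocyte library, placed the same way, went to their own stage in 88.7% of cases. This share was 95.8% for DP, 69.8% for Pre DP-sig, 68.1% for DP-sig and 64.1% for agonist-selected or Treg cells, and of the cells placed at Pre DP-sig 48.8% carried that label. Of the 320 fibroblast-poor cells, 238 were placed at DP (74.4%, 69.2 to 79.1), where the same procedure put 59.5% of the thymocyte library (58.4 to 60.5). DP-sig took 26 cells (8.13%, 5.38 to 11.7) against 3.18% of the library, and Pre DP-sig 23 cells (7.19%, 4.61 to 10.6) against 5.49%. Immature SP labels took 20 cells (6.25%) against 6.77%. For Pre DP-sig and immature SP, the interval held the library's share.

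Stages at both ends were rare among the fibroblast-poor cells. DP-P, the proliferating stage, had 0 of 320 cells, which allows up to 1.15%, and held 8.79% of the library. DN had 1 cell (0.313%, 0.00791 to 1.73) against 6.02%. Mature SP labels had 4 cells (1.25%, 0.342 to 3.17) against 4.75%. The label B+myeloid had none. The cell filters of the libraries differed. Annotated stromal cells all had 501 to 6999 genes and at most 4.99% mitochondrial UMIs, and 5044 of the 8546 thymocyte-library cells (2331 of the 5202 DP cells) lay in that range. Over all 387 thinned cells, 64.6% were placed at DP. The fibroblast-rich cells were placed with most of their RNA matching stroma, and their places are not read as stages. They do enter the reference used below for all 411 cells, in which intCD4 had a weight of 7.69%, gdT 4.67% and B+myeloid 3.62%, so values over all 411 cells rest in part on uncertain places. In the reference of the fibroblast-poor cells, gdT had a weight of 0.383% and the other 2 had none.

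**Figure D3:**
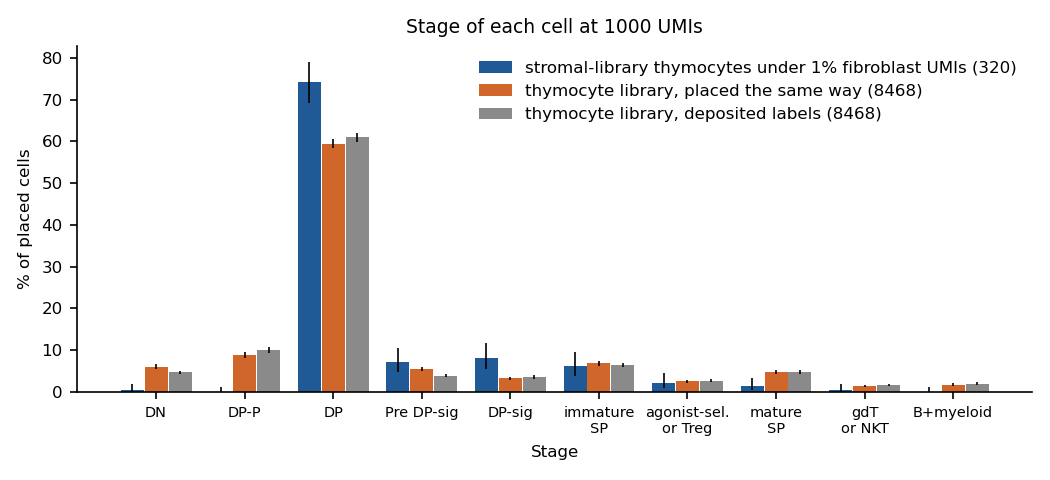
Share of cells (%) placed at each stage after thinning to 1000 UMIs, for 320 fibroblast-poor stromal-library thymocytes (blue), 8468 thymocyte-library cells placed while held out (orange), and the deposited labels of those cells (grey). Lines are 95% exact intervals; DP holds 74.4% of the blue cells and 59.5% of the orange, and DP-P holds 0 and 8.79%.

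Expression was then compared at matched stage. The reference was the pooled profile of each thymocyte-library label, weighted by the UMIs of the stromal-library thymocytes placed there. A gene counted as measured with at least 10 CPM and 20 UMIs on 1 side, and as higher or lower at a 2-fold ratio. Over all 411 cells, 10011 genes were measured, 19.3% were higher and 3.35% lower. Higher genes made up 85.2% of these calls, 74.9% with totals without mitochondrial, ribosomal protein and haemoglobin genes, and 46.7% after subtraction of the stromal part defined next. In the 344 fibroblast-poor cells, 8817 genes were measured, 7.86% were higher and 2.04% lower, with a median ratio of 1.13 over all genes (0.18 on the log2 scale). For each gene the stromal part was estimated, as its level in non-lymphoid stroma times the carry-over given above. The carry-over was measured with the same 10 fibroblast genes that divided the cells. A small stromal part in the fibroblast-poor cells was thus partly built in. The stromal part was under 10% for 8165 of the 8817 genes, and 4.62% of those were higher and 2.02% lower. With totals that leave out mitochondrial, ribosomal protein and haemoglobin genes, every ratio fell by 0.16 on the log2 scale, and the higher genes made up 67.5% of calls in place of 79.4%.

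Stage genes of the fibroblast-poor cells stayed within 2-fold of the reference with few exceptions. None of 16 T cell core genes and none of 16 DP genes was past 2-fold, with median ratios of 1.01 and 1.04. Rag1 and Rag2, the recombinase genes, had ratios of 1.17 (1.11 to 1.23) and 0.850 (0.686 to 1.05), Dntt, the enzyme that adds bases at receptor joints, 0.819 (0.747 to 0.897), and Cd4 0.970 (0.907 to 1.04). Many of these genes also served in the placement, so a ratio near 1 is partly built in. Of 7 measured early genes none was past 2-fold. Of 17 mature-cell genes, 1 was higher, Klf2 (118 against 44.6 CPM, 2.64-fold), a factor of naive T cells that is also abundant in endothelium, and 1 lower, Ms4a4c (6.37 against 12.7 CPM, on 6 UMIs). Of 10 proliferation genes, 2 were higher, Pcna (2.48-fold) and Mcm5 (2.21-fold), both parts of the replication machinery, while Mki67 had a ratio of 1.15 on 14 UMIs. Over all 411 cells, the T cell core median was 0.674 and 8 of 18 mature-cell genes were lower.

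Of 13 measured selection-signal genes, which respond to the T cell receptor, 1 was higher in the fibroblast-poor cells. It was Id3, an inhibitor of E proteins, at 211 against 103 CPM (2.04-fold, 1.77 to 2.36), of which 3.93% was the stromal part. Cd69, an early activation marker, had a ratio of 1.40 (1.09 to 1.79) and Cd5, which dampens receptor signals, 1.32 (1.14 to 1.53). Nr4a1, the nuclear receptor counted here among the immediate-early genes, had a ratio of 1.57 (1.32 to 1.87). In the 238 cells placed at DP, compared with the DP label alone, 7.64% of 8477 genes were higher and 2.84% lower, and 4 of 11 selection-signal genes were higher, or 3 of 10 with a stromal part under 10%. Id3 was 4.42-fold (3.42 to 5.71) and Nr4a3 4.30-fold higher (2.55 to 7.24), while Cd69 rested on 8 UMIs and Itm2a (2.23-fold) had a stromal part of 49.2%. Nr4a1 was 3.45-fold higher in these cells (2.58 to 4.62). In this DP comparison the T cell core had no gene past 2-fold and a median ratio of 1.05.

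Immediate-early genes stood well above the reference. Of 27 measured immediate-early genes, 22 were at least 2-fold higher in the fibroblast-poor cells, none was lower, and the list's median ratio was 3.75. With the stromal part under 10%, 19 of 24 were higher. Among them were the AP-1 genes. Jun was at 1251 CPM against 111 (11.3-fold, 10.6 to 12.1), Fos at 425 against 52.8 (8.06-fold), Jund at 520 against 131 (3.96-fold) and Junb at 897 against 278 (3.22-fold). Gadd45b, a stress-induced regulator of kinase signalling, was at 203 against 25.8 CPM (7.84-fold, 6.68 to 9.21). Dusp1, a phosphatase that switches off stress kinases, was at 336 against 68.5 CPM (4.91-fold, 4.36 to 5.53).

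Regulators that act after such signals were also higher. Ier5 was 5.88-fold, Rhob 4.68-fold, Ppp1r15a (which restarts translation after stress) 4.48-fold, Zfp36 (which destabilises inflammatory transcripts) 3.75-fold, Nfkbia (the NF-κB inhibitor) 2.99-fold and Tnfaip3 3.15-fold higher. Btg2, an antiproliferative gene already abundant in DP cells, was at 3114 against 1468 CPM (2.12-fold, 2.04 to 2.20). The 5 measured genes under 2-fold were Zfp36l1 (1.98), Nfkbiz (1.75), Myc (1.59), Nr4a1 (1.57) and Btg1 (1.36). In the cells placed at DP against the DP label, Zfp36l1 (2.41), Nr4a1 (3.45) and Myc (3.77, on 12 UMIs) were past 2-fold. Nfkbiz (1.63) and Btg1 (1.37) were not. A pair of the higher genes needs care: Cd83 (15.9-fold) had 23 of its 26 UMIs in 1 cell, and for Klf4 (21.0-fold) the stromal part was 20.5%.

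Over all 411 cells, 22 of 30 immediate-early genes were higher, with a median of 2.87, and 23 were higher against the pooled thymocyte library, which uses no placement. Against the stage-matched reference, Jun over all 411 cells was at 992 against 119 CPM (8.35-fold, 7.84 to 8.90), with a stromal part of 32.9%. Fos was 5.55-fold higher with a stromal part of 80.9%. After subtraction of the stromal part, 16 of the list remained higher over all cells, and 22 in the fibroblast-poor cells. The level of Jun in the fibroblast-poor cells, 1251 CPM, was above the mean of non-lymphoid stroma (659 CPM) and below the highest stromal label, vEC (2219 CPM).

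**Figure D4:**
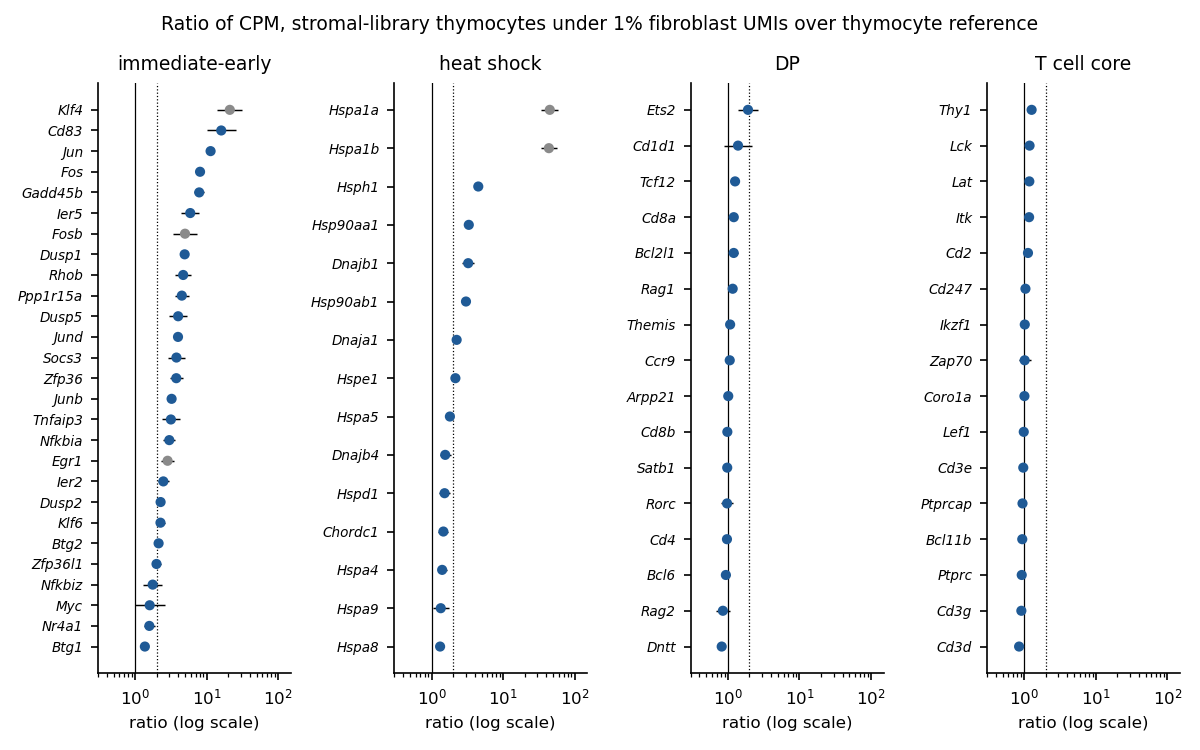
Ratio of CPM in the 344 fibroblast-poor stromal-library thymocytes to the stage-matched thymocyte reference (log scale) for each measured gene of 4 lists. Lines are 95% intervals for counting error, the solid line marks 1 and the dotted line 2, and grey points have a stromal part of 10% or more. Of the immediate-early genes 22 of 27 lie at or past 2, of the heat shock genes 8 of 15, and of the DP and T cell core genes none of 16 each.

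Several heat shock genes were also above the reference. Of 15 measured, 8 were at least 2-fold higher in the fibroblast-poor cells, none was lower, and the median ratio was 2.15. Over all 411 cells, 8 of 17 were higher, and 4 after subtraction of the stromal part. Hsph1, a cochaperone of the HSP70 family, was at 632 against 141 CPM (4.50-fold, 4.12 to 4.91). The cytosolic HSP90 genes Hsp90aa1 (1591 against 480 CPM) and Hsp90ab1 (1990 against 658 CPM) were 3.31-fold and 3.03-fold higher. Dnajb1 (3.25-fold) and Dnaja1 (2.24-fold), cochaperones of HSP70, and Hspe1 (2.15-fold), the mitochondrial cochaperonin, were also higher. The HSP70 genes Hspa1a and Hspa1b were 44.9-fold and 43.7-fold higher, at 146 and 189 CPM. They are near-identical copies between which reads can be split, the stromal parts were 16.2% and 16.0%, and Hspa1a UMIs were seen in 48 of the 344 cells.

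The other 7 chaperone genes were within 2-fold. They were Hspa8 (1.32), Hspa9 (1.34, mitochondrial), Hspa4 (1.41), Chordc1 (1.46), Hspd1 (1.52, mitochondrial), Dnajb4 (1.55) and Hspa5 (1.80, in the endoplasmic reticulum). Hspa8 and Hspd1 turned to 0.935 and 0.667 when the whole thymocyte library, cycling cells included, was the reference.

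Sequences before the start sites are shown for genes of both classes, because their known response elements are short enough to be read there. They come from a RefSeq table (GRCr8) that gives 250 bases before to 50 after each start, which held 26 of 31 immediate-early and 14 of 18 heat shock genes (Jun, Fos, Hspa1b and Hsp90aa1 are not among them). Capitals mark, on the gene's strand, a match on either strand to the heat shock element (GAA, NN, TTC, NN and GAA without gaps), bound by HSF1, in Hsph1 and Hspe1, and to the cAMP response element TGACGTCA, bound by CREB and ATF factors, in Jund, Dusp1 and Btg2. They lie at chr12:10427292-10427367 (plus strand), chr9:64084227-64084319 (plus), chr16:18769945-18770021 (minus), chr10:17184689-17184776 (plus) and chr13:48087844-48087931 (minus), in this order.
Hsph1: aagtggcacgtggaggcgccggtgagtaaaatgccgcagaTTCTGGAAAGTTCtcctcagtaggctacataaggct
Hspe1: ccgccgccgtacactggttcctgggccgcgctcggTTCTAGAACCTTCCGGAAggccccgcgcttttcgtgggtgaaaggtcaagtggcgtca
Jund: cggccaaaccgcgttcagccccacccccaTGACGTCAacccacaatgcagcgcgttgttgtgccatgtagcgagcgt
Dusp1: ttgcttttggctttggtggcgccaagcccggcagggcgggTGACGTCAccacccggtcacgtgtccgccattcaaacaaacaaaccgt
Btg2: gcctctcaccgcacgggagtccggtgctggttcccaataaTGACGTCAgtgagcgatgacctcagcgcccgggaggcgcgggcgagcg

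In Hspe1, 2 overlapping matches run together. The heat shock element was in 6 of 14 heat shock promoters and 0 of 26 immediate-early promoters, against 0.798% of 33469 promoters of the same length. The cAMP element was in 5 of 26 immediate-early promoters (Jund, Ier2, Dusp1, Btg2 and Ppp1r15a) and in 1 heat shock promoter, Hsp90ab1, against 1.83% of all. The CArG box, bound by SRF, was in 4 of 26 (Egr1, Dusp5, Zfp36 and Klf6) and no heat shock promoter, against 1.64% of all. Of the 6 heat shock genes with an element, Hsph1, Dnaja1 and Hspe1 were past 2-fold and Hspa8, Hspd1 and Chordc1 were not. A match is a description of the letters and no binding was measured.

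The difference was also seen as a share of cells at equal depth. After thinning to 1000 UMIs, Jun UMIs were in 52.1% of the 238 cells placed at DP (45.6 to 58.6), in 9.55% of 5164 DP-labelled thymocytes (8.76 to 10.4) and in 16.1% of TMC2 cells. Fos was in 18.9%, 2.71% and 16.6% of these groups, Gadd45b in 15.5%, 2.36% and 2.70%, and Hsph1 in 29.4%, 8.42% and 12.6%. The thymocyte gene Cd3e was at a like share in both thymocyte groups (56.3% and 60.5%) and in 0.0650% of TMC2. The fibroblast gene Dcn was in 30.3% of the placed cells (24.5 to 36.5), 0.0194% of DP-labelled cells and 99.9% of TMC2. The fibroblast-poor cells thus held some stromal RNA too. Median depths before thinning were 2360, 3215.5 and 8271 UMIs. For Hspa1b, the share in TMC2 (40.5%) was above that in the placed cells (6.30%) and the DP label (0.213%). TMC2 is 1 stromal label and does not stand for all stroma. Pooled non-lymphoid stroma held Jun at 659 CPM and Fos at 688 CPM, and vEC, the highest label, 2219 and 2492 CPM. Shares at equal depth are not given here for other stromal labels.

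**Figure D5:**
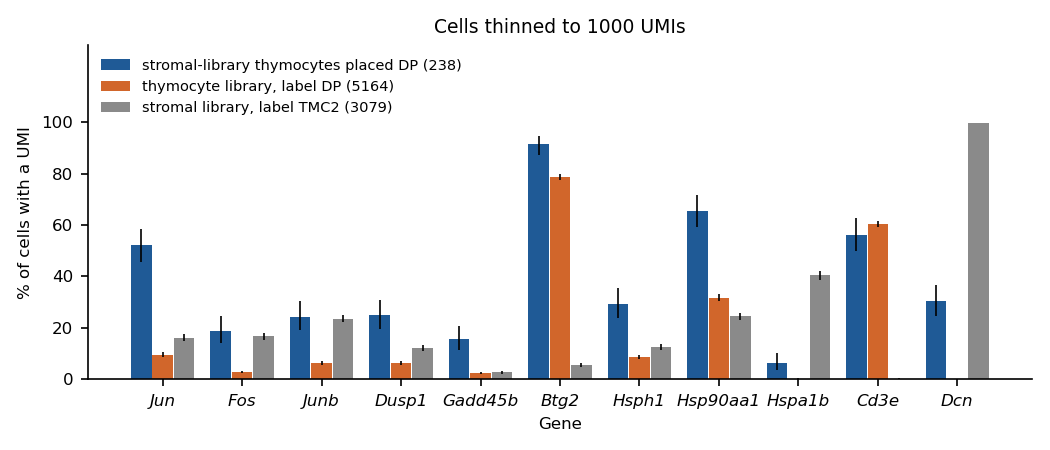
Share of cells (%) with at least 1 UMI of each gene after thinning to 1000 UMIs, in 238 fibroblast-poor stromal-library thymocytes placed at DP (blue), 5164 thymocyte-library cells labelled DP (orange) and 3079 stromal cells of the fibroblast label TMC2 (grey). Lines are 95% exact intervals; Jun is in 52.1%, 9.55% and 16.1% of cells, and Dcn in 30.3%, 0.0194% and 99.9%.

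Immediate-early genes were higher at each of the 4 best filled stages. Summed over the list, the ratio to the same label was 2.67 (2.60 to 2.74) at DP (238 cells), 2.49 (2.29 to 2.71) at Pre DP-sig (23), 2.56 (2.36 to 2.76) at DP-sig (26) and 3.22 (3.03 to 3.43) at immature SP (20). The summed heat shock ratios were 3.03 (2.93 to 3.12), 2.59 (2.37 to 2.83), 2.03 (1.87 to 2.20) and 2.29 (2.15 to 2.45). Jun was 11.6-fold, 14.0-fold, 9.48-fold and 10.8-fold higher. Hsph1 ranged from 5.73-fold at DP to 1.67-fold (1.11 to 2.52) at DP-sig. The summed T cell core ratios were 1.05, 0.962, 1.02 and 0.857. Within the DP comparison, 24 of 26 immediate-early genes were past 2-fold with a median of 4.12, and 9 of 15 heat shock genes with a median of 2.71. A summed ratio weighs abundant genes most. The most abundant immediate-early genes in the DP label were Btg2 (1846 CPM) and Btg1 (910 CPM), with ratios of 2.02 and 1.37.

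Genes of 2 other stress lists were also compared. Of 18 stress and death genes in the fibroblast-poor cells, 6 were higher and none lower, with a median ratio of 1.73. Of all genes measured in these cells, 7.86% were higher. Ddit4, an inhibitor of mTOR, was 3.53-fold higher, Bbc3, the p53 target PUMA, 4.06-fold, Atf4, the factor of the integrated stress response, 2.86-fold, and Ddit3, its target CHOP, 2.37-fold. The other 2, Phlda3 and Mt2A, rested on 15 and 25 UMIs with stromal parts over 10%. Casp8, an initiator caspase, had a ratio of 0.914. Of 9 glucocorticoid-responsive genes, Ddit4 and Klf9 (2.19-fold) were higher, while Tsc22d3 (0.693), Fkbp5 (1.05) and Per1 (1.33), 3 well-known targets, were within 2-fold. Over all 411 cells, 9 of 20 stress and death genes and 3 of 10 glucocorticoid genes were higher, against 19.3% of all measured genes. After subtraction of the stromal part, 1 glucocorticoid gene was higher.

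Other RNA measures also differed. Mitochondrial genes made up 45112 CPM of the fibroblast-poor cells against 80398 in the reference, and ribosomal protein genes 128511 against 180110. The authors' mitochondrial percent, for which the genes counted are not given here, had a median of 1.33 in these cells and 5.22 in the DP label. By that percent, no annotated stromal cell was over 4.99%, a limit that the thymocyte library did not share. Lower mitochondrial values in the stromal library were thus partly built in. No mitochondrial value is given here for reference cells inside that limit. When thymocyte-library cells outside the gene and mitochondrial range of the stromal library were left out, 22 immediate-early and 8 heat shock genes were still past 2-fold.

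B cells were also compared across the libraries, without matching of stage. The thymocyte-library cells came from its mixed label B+myeloid and the stromal-library cells from the label B cell. Both were kept by a minimum of UMIs of B cell genes. For fibroblast-poor B cells, 98 of the stromal library against 43 of the thymocyte library, 28.7% of 8021 genes were higher and 11.9% lower, with a median ratio of 1.35. Of 27 immediate-early genes 5 were higher and 7 lower in the stromal library, with a median of 0.877. Jun was 2.79-fold (2.31 to 3.36) and Dusp1 3.92-fold higher (2.66 to 5.77), whereas Fos was at 0.277 (0.233 to 0.330) and Junb at 0.391. Of 15 heat shock genes, 5 were higher and none lower, with Hsp90aa1 3.88-fold higher and Hsph1 at 1.03. The B cells were not of like stage: all 18 proliferation genes were higher in the stromal library (median 7.34), Igll1, of the pre-B cell receptor, had 1034 UMIs against 0, and Igha, an antibody heavy chain, 97 against 13496. The thymocyte-library cells also held RNA of other cell types: Tyrobp, an adaptor of myeloid and NK cells, had 1099 UMIs (1601 CPM) and Siglech, a receptor of plasmacytoid dendritic cells, 626 UMIs (912 CPM), against 0 of each in the stromal-library B cells. Whether whole cells of other types were among the 43 was not tested. The part of stage and of such RNA in the B cell values was not tested either.

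The largest ratios among the named genes belonged to markers of other cells. S100a9 and S100a8, calcium-binding proteins of neutrophils, and RatNP-3b, a neutrophil defensin, were 200-fold, 168-fold and 502-fold higher in the fibroblast-poor cells than in the reference. The last (153 to 1651) rested on 3 reference UMIs. Against the whole thymocyte library, myeloid cells included, S100a9 and S100a8 had ratios of 0.655 and 0.764. S100a9 was at 116 CPM, in 24.4% of the cells and with at most 6 UMIs in any 1, against 66.9 CPM and 30.4% in non-lymphoid stroma and 71122 CPM in the Myeloid label. Of the 13 genes on the myeloid list, 8 were detected in the fibroblast-poor cells, and the complement genes C1qa, C1qb and C1qc, Csf1r and Aif1 were at 0. Tbata, a gene of thymic epithelium, was 57.2-fold higher, with 92 of its 144 UMIs in 1 cell, and 5 of 5 measured epithelial genes were higher. Summed over each list, the fibroblast-poor cells held 353 CPM of myeloid, 189 of epithelial, 150 of mural, 64.7 of endothelial and 37.1 of B cell genes, and the part of such RNA in the stress genes was not tested beyond the stromal part. Clic4 was 5.63-fold higher with a stromal part of 8.66%.

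The genes with the smallest ratios were few in UMIs. Fcrla, a B cell gene, had 0 UMIs against 34.8 CPM in the reference, a ratio of at most 0.0914 with 0 taken as 3 UMIs. Plcg2, a phospholipase of B cell receptor signalling, had a ratio of 0.203 (0.0964 to 0.427), and the histone genes H2ac23 (0.208, 0.123 to 0.352) and H2bc8 (0.236, 0.0758 to 0.736) were also lower. The RNA component of RNase P, Rpph1, had 3 UMIs (0.115, 0.0371 to 0.359). Cd79a, of the B cell receptor, had 0 UMIs against 12.2 CPM. This reference gave no weight to the label B+myeloid. In the thymocyte library, the DP label held Fcrla at 28.2 CPM and Plcg2 at 40.1 CPM. Cd79a was at 0.159 CPM in the DP label and 445 CPM in the Treg label. Of 17 measured adhesion and class I surface genes, 1 was past 2-fold, Icam1, an adhesion ligand, at 24.4 against 1.98 CPM (12.3-fold, 7.54 to 20.2, on 23 UMIs). The integrins Itgal (1.14), Itga4 (1.11) and Itgb2 (1.09) and the chemokine receptor Cxcr4 (1.22) were near the reference, and class I B2m was at 1.66 (1.57 to 1.76) with a stromal part of 14.6%.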

How the data were processed

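Single-cell RNA was measured by 10x droplet libraries of 2 samples, stromal and thymocyte. A spatial section was not used here. Cell Ranger 8.0.0, Seurat 5.3.0 and the rat build mRatBN7.2 are named in the submitters' processing notes. The deposited matrices hold raw UMI counts per gene and barcode. The authors also deposited cell labels and, per cell, the percent of mitochondrial UMIs. The genes, lists and cells described were chosen with earlier results of these data known, and the division at 1% fibroblast UMIs was added after seeing the data.

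Counts of annotated cells were pooled per group and scaled to CPM (Python 3.11.15, NumPy 2.4.6, SciPy 1.17.1, pandas 2.3.3, matplotlib 3.10.9, seed 7). The 411 cells had a median of 2648 UMIs and the thymocyte library 3994. Intervals are 95% and cover counting error only: exact Poisson for CPM, exact Clopper-Pearson for shares, log-normal for ratios. With 1 sample a group, no test was run. Placement used a multinomial likelihood with equal priors over labels of at least 20 cells, up to 50 genes a label. A gene was measured with at least 10 CPM and 20 UMIs on 1 side and called at 2-fold; counts under 3 UMIs were set to 3 for ratios. Named genes were the list genes a result turned on and, among genes past 2-fold with a stromal part under 10% and at least 50 UMIs in the higher group, the 12 of largest and the 12 of smallest ratio. Genes named by an identifier only, mitochondrial, ribosomal protein and Y-linked genes were left out. Scripts were tested on simulated data. Alternatives changed the scaling, thinning, reference, thresholds, cells and stromal part. Doublets were not removed.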

Additional observations from a re-analysis of the deposited data

Results flagged for a closer look

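The median ratio of the immediate-early genes lay on different sides of 1 in thymocytes and B cells of the stromal library. The median ratio to the thymocyte library was 3.75 in the fibroblast-poor thymocytes, at matched stage, and 0.877 in fibroblast-poor B cells, without matching of stage. The difference was not tested, since each library was 1 sample. Over all genes, the median ratios were 1.13 in these thymocytes and 1.35 in these B cells. Of the 27 immediate-early genes in B cells, 5 were higher and 7 lower, against 28.7% and 11.9% of all genes. The thymocyte-library cells of this comparison, taken from the mixed label B+myeloid, differed in stage. They held 1601 CPM of Tyrobp and 912 CPM of Siglech against 0.

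Outside the annotated cells, 16 of 2934 stromal-library barcodes without a label had at least 1% of their UMIs in T cell core genes. These barcodes enter no comparison, and 9 of the 16 had over 500 genes.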

How the results depend on the processing

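No paired analysis was possible because the stromal and thymocyte libraries were single samples. Of 730 values recomputed under alternatives, 493 kept their direction and size, 210 moved and 27 changed direction.

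For all 411 cells, the summed DP ratio (0.850) was 1.01 as a mean of cells' CPM, 0.755 without mitochondrial, ribosomal and haemoglobin genes, 1.05 without cells holding 3 or more UMIs of other cell types' lists (176 cells kept), 1.11 against the pooled library, 0.948 for placed DP against DP, 1.54 with the stromal part subtracted, 1.25 thinned and 1.07 fibroblast-poor. The summed selection ratio (0.783) was 1.09 as a mean of cells, 1.20 without cells holding other lists, 1.55 pooled, 1.28 for placed DP, 1.22 subtracted and 1.20 fibroblast-poor. The mature ratio (0.717) was 1.08 without cells holding other lists and 1.01 fibroblast-poor, and the T cell core ratio (0.702) 1.04 and 1.00, or 1.30 subtracted. Fibroblast CPM (23405) was 9546 as a mean of cells, 28200.4 without the 3 gene classes, 1124 without cells holding other lists, 10286 for placed DP, 1937 subtracted and 9625 thinned. Genes higher (1928) were 640 without cells holding other lists, 1217 for placed DP, 757 subtracted, 7506 with no CPM minimum, 1106 thinned and 693 fibroblast-poor. Genes lower (335) were 613 without the 3 gene classes, 730 against the pooled library, 865 subtracted, 122 at 3-fold, 722 with no CPM minimum and 180 fibroblast-poor. Immediate-early genes higher (22) were 14 at 3-fold. Heat shock genes (8) were 4 subtracted and 5 at 3-fold. Stress and death genes (9) were 5 without cells holding other lists, for placed DP and thinned, and glucocorticoid genes (3) were 1 without such cells, subtracted and thinned. Cd3e (578 CPM) was 781 as a mean of cells and 914 fibroblast-poor. The Ptprc ratio to the library (0.891) was 0.947 as a mean of cells, 0.626 matched and 1.35 fibroblast-poor. Cells with both coreceptors (44.7%) were 66.4% not thinned, 55.4% at 2000 UMIs, 22.7% with 2 UMIs required and 52.8% fibroblast-poor. DP placement (64.6%) was 74.4% fibroblast-poor.

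For the fibroblast-poor cells, glucocorticoid genes higher (2) were 1 as a mean of cells, without the 3 gene classes, without cells holding other lists, at 3-fold and thinned. Stress and death genes (6) were 10 against the pooled library. Genes lower (180) were 306 without the 3 gene classes, 748 pooled, 42 at 3-fold and 278 with no CPM minimum, and genes higher (693) were 348 at 3-fold and 6933 with no minimum. The summed DP ratio (1.07) was 0.970 without the 3 gene classes, 1.05 without cells holding other lists, 1.70 pooled, 1.11 subtracted and 1.19 thinned. Against the pooled library, Hspa8 was 0.935, Hspd1 0.667, S100a8 0.764, S100a9 0.655 and Ptprc 1.35. Ptprc (0.922) was 1.00 for placed DP and 1.01 thinned. Its ratio to the library (1.35) was 1.08 as a mean of cells and 0.922 matched. Both coreceptors (52.8%) were 68.0% not thinned, 67.5% at 2000 UMIs and 27.5% with 2 UMIs required. In fibroblast-poor B cells 5 immediate-early and 4 glucocorticoid genes were higher. The cause of these moves was not tested. The number of cells limits what can be said of rare stages: 0 of 320 cells allows up to 1.15%.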
